A study of Homo sapiens with 18 samples.

Results

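The comparison described here is the difference between the responses of VCaP prostate cancer cells to 2 ways of acting on the transcription factor ERG. It takes the log2 change from DMSO to PBITE-1 at 12 h, subtracts the log2 change from shERG-DMSO to shERG-Dox, and was chosen by the sample labels. These 4 groups of 3 samples make up 12 of the 18 RNA-seq samples in the study, and the other 6 are PBITE-1 at 4 h and 8 h. VCaP is an established epithelial line from a prostate cancer metastasis that carries the TMPRSS2:ERG fusion. VCaP-shERG cells express a short hairpin RNA against ERG from a vector that doxycycline (Dox) switches on, and they received DMSO or 1 µg/mL Dox. Parental VCaP cells without the hairpin received DMSO or 50 µM PBITE-1, a small molecule that the study developed as a ligand of the Pointed domain of ERG. No cells with Dox and a nontargeting hairpin were analysed here, the labels give no duration of Dox (a figure heading of the study gives 12 h), and each treatment has its own control in its own cell population. In other experiments of the study, Dox was given for days. Hairpin or parental line, batch of culture, and kind and duration of treatment cannot be told apart in the difference between the responses.

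ERG belongs to the ETS family of transcription factors, which bind DNA at a GGAA core, and in fusion-positive prostate cancer it comes under the control of the androgen-regulated TMPRSS2 promoter. A hairpin lowers the ERG transcript and so the amount of protein, whereas a ligand acts on protein that is already present. Cells also carry stress programs that change many transcripts within hours. The best known is the integrated stress response, in which the factor ATF4 induces amino acid transport and synthesis, and the heat shock, metal, and sterol responses have factors of their own.

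ERG itself (ENSG00000157554, chromosome 21, 38380027 to 38661780, minus strand, GENCODE 29 on GRCh38) was lower under both treatments. Its level was 431, 420, and 406 CPM in shERG-DMSO, 156, 157, and 150 in shERG-Dox, 294, 304, and 312 in DMSO, and 104, 90.5, and 103 in PBITE-1 12 h, where CPM are counts scaled to a common library size with TMM factors. The group means were 419 ± 12.2 (SD, n = 3) in shERG-DMSO and 154 ± 3.91 (SD, n = 3) in shERG-Dox, and no treated sample overlapped its controls. The log2 fold change was -1.44 (SE 0.04, adjusted p = 1.32e-31) with Dox and -1.62 (SE 0.04, adjusted p = 1.63e-32) with PBITE-1, all adjusted p-values in the text being limma-voom with Benjamini-Hochberg adjustment over all tested genes. The difference of the responses was -0.17 (SE 0.06, adjusted p = 0.0101), a further fall with PBITE-1 that was below the size required for a call. It lay between -0.10 and -0.43 under all alternatives run. Its adjusted p was 0.125 without replicate 2 of PBITE-1 12 h and 0.0536 without replicate 3 of shERG-DMSO. The 18 samples held 11308600 to 17483423 counts, at which 3 counts of a gene correspond to 0.179 to 0.276 CPM. Of 22034 genes in the table, 14164 passed the filter on low counts and were tested. Luminal markers summed to 7210 to 7310 CPM in shERG-DMSO and 6020 to 6150 in DMSO, and to 4630 to 4670 in shERG-Dox and 3880 to 4520 in PBITE-1 12 h. The 4 immune and 3 endothelial markers summed to at most 1.67 and 2.11 CPM, and the 4 stromal markers summed to 0.885 to 1.69 CPM in shERG-DMSO, 5.25 to 6.26 in shERG-Dox, 1.28 to 2 in DMSO, and 4.27 to 7.49 in PBITE-1 12 h. In bulk RNA, fewer cells of a kind and less RNA per cell cannot be told apart.

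The responses differed in a large part of the transcriptome. A gene was called when its adjusted p was under 0.05 and its absolute log2 difference above 1, and "fell", "rose", "lower", and "higher" below refer to called genes unless an adjusted p alone is named. With Dox, 1013 genes fell (7.15% of those tested) and 1691 rose (11.9%), and with PBITE-1 2321 fell (16.4%) and 2330 rose (16.5%). The difference of the responses was called in 2255 genes that were lower with PBITE-1 than with Dox (15.9%) and in 1840 that were higher (13%). This split depends on the scaling, since on library size only it was 3066 lower and 1313 higher. Without TMM the median log2 fold change of all genes with Dox moved to 0.28 from 0.02, and that of the difference to -0.28 from -0.02.

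Genes with opposed responses, called in both treatments with opposite signs, numbered 345, and the difference of the responses was called in all 345. Of these, 62 fell with Dox and rose with PBITE-1 (0.438% of the genes tested) and 283 rose with Dox and fell with PBITE-1 (2%). By comparison, 471 genes fell in both treatments and 586 rose in both. Genes were placed in a class of 1 treatment only when called there, called in the difference, and under 0.5 on the absolute log2 scale in the other treatment. With Dox only, 174 fell (1.23%) and 321 rose (2.27%), and with PBITE-1 only, 599 fell (4.23%) and 730 rose (5.15%). The 174 depend on the scaling, with 107 under upper-quartile scaling and 59 on library size only. A call in 1 treatment and not in the other was more frequent, with 1302 genes for Dox and 3249 for PBITE-1, and the difference itself was called in 809 and 2092 of them. The plot of both responses shows the classes as arms along the axes and as the upper left and lower right corners.

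**Figure D1:**
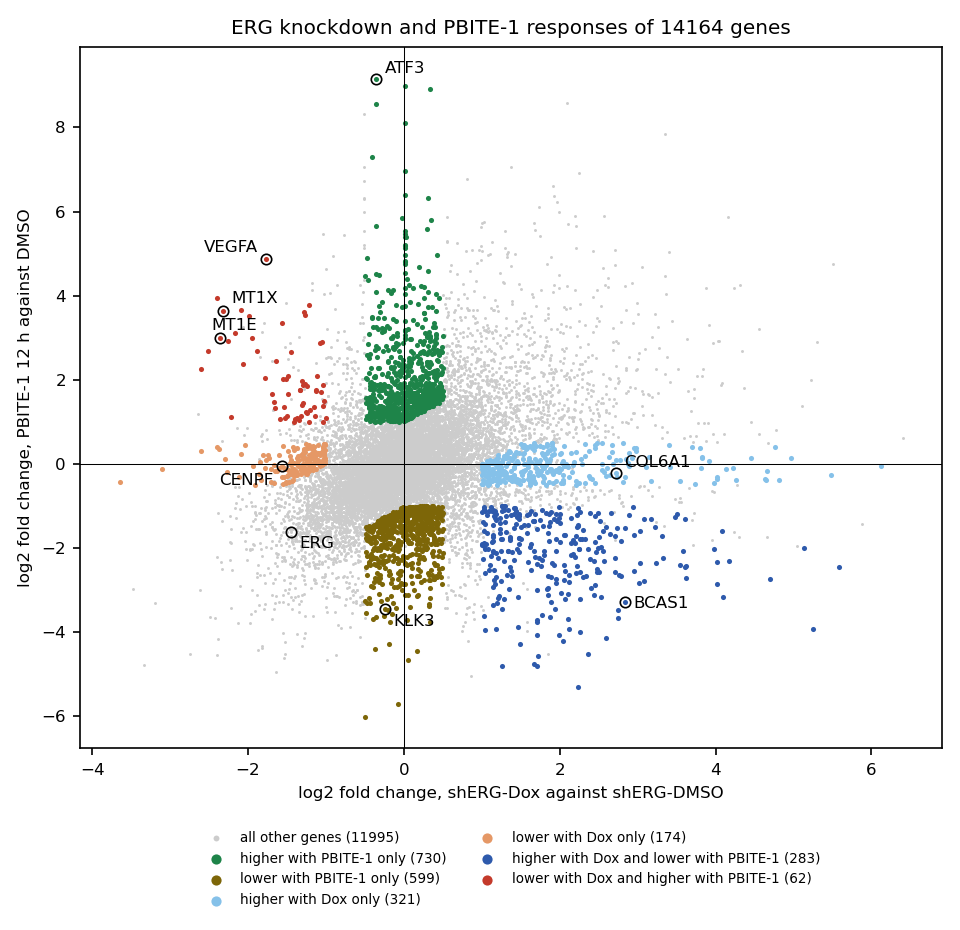
Each point is 1 of 14164 tested genes, with its log2 fold change in shERG-Dox against shERG-DMSO (x axis) and in PBITE-1 12 h against DMSO (y axis), coloured by class with the number of genes in brackets. ERG lies at -1.44 and -1.62 in the lower left, MT1E at -2.36 and 2.98 in the upper left, and BCAS1 at 2.84 and -3.28 in the lower right.

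The limits of the opposed classes are cuts in a continuous spread of values. Just inside for genes that fell with Dox and rose with PBITE-1 were GPC3 (-1.21 and 1.00) and CKS2 (-1.41 and 1.00), and just outside was LPAR3 (-0.996 and 1.93). For the opposite class, DPY19L2 (1.26 and -1.001) lay inside and CTSH (1.08 and -0.996) outside. The opposed genes were mostly of low expression, with a median level in the controls of 4.99 CPM for the 62 and 1.69 CPM for the 283, against 21.9 CPM for all tested genes. A mean count of at least 50 over the 12 samples was reached by 38 of the 62 and by 110 of the 283, and the leading genes described below were taken from these by the size of the smaller of both responses. Other genes are named as members of lists and were chosen after their values were seen. Groups did not overlap with Dox in 58 of the 62 and 276 of the 283, against 72.6% of all tested genes, and with PBITE-1 in 61 and 266, against 78.8%. The calls that chose the members fix most of this, and nothing is read from it.

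Metallothionein genes stood among the most strongly opposed. Metallothioneins are small cysteine-rich proteins that bind zinc and copper, and their genes are switched on by the zinc-sensing factor MTF1. MT1E (ENSG00000169715, chromosome 16, 56625475 to 56627112, plus strand) was at 81.6, 72, and 67.4 CPM in shERG-DMSO, 15.2, 13.5, and 14 in shERG-Dox, 52.1, 55.5, and 49.5 in DMSO, and 431, 423, and 390 in PBITE-1 12 h. Its 4 groups did not overlap, and the log2 fold change was -2.36 (SE 0.12, adjusted p = 3.47e-22) with Dox and 2.98 (SE 0.07, adjusted p = 5.19e-36) with PBITE-1. MT1X (ENSG00000187193, chromosome 16, 56682424 to 56684196, plus strand) was at 27.9, 23.9, and 23 CPM in shERG-DMSO, 5.43, 5.09, and 4.23 in shERG-Dox, 27.1, 27.3, and 27.1 in DMSO, and 357, 342, and 310 in PBITE-1 12 h. The controls of both experiments were at a similar level of MT1X, all Dox samples were below both, and all PBITE-1 samples were above both. MT2A (ENSG00000125148, chromosome 16, 56608199 to 56609497, plus strand) was at 65, 54.7, and 55.8 CPM in shERG-DMSO, 13.4, 10, and 13.3 in shERG-Dox, 38.7, 41.8, and 35.3 in DMSO, and 320, 278, and 281 in PBITE-1 12 h. The difference of the responses was 5.18 (SE 0.17, adjusted p = 9.58e-29) for MT2A and 5.95 (SE 0.24, adjusted p = 2.48e-25) for MT1X.

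Of 16 genes on a list of metallothioneins and zinc transporters, 11 were tested and 5 were opposed in this direction. They were MT1E, MT1X, MT2A, MT1F, and SLC30A1, the plasma membrane exporter of zinc. SLC30A1 (ENSG00000170385, chromosome 1, 211571568 to 211578742, minus strand) was at 70, 70.8, and 71.4 CPM in shERG-DMSO, 31.8, 34.6, and 35.1 in shERG-Dox, 85.3, 95, and 95.6 in DMSO, and 257, 346, and 304 in PBITE-1 12 h, with log2 fold changes of -1.07 with Dox and 1.71 with PBITE-1. MT1F was at -1.31 with Dox and 1.96 with PBITE-1 on the same scale. SLC30A10, an exporter of manganese, went the other way, from 0.156, 0.696, and 0.421 to 3.53, 2.98, and 3.43 CPM with Dox and from 3.66, 3.71, and 3.71 to 0.378, 0.535, and 0.551 CPM with PBITE-1. For MTF1 itself the log2 fold changes were -0.45 with Dox and 0.71 with PBITE-1, and neither was called. Metallothionein genes are close copies of each other, and how reads that match several of them were assigned is not certain, so single members are uncertain.

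The sequence before the start of 3 of these genes is shown because it holds the short motif to which MTF1 is known to bind, the metal response element. The sequences are the 250 bases before the RefSeq start (GRCh38.p14), 5′ to 3′ on the strand of the gene, and capitals mark TGCACNC or TGCGCNC on either strand.
MT1X (chr16:56682220-56682469, plus strand): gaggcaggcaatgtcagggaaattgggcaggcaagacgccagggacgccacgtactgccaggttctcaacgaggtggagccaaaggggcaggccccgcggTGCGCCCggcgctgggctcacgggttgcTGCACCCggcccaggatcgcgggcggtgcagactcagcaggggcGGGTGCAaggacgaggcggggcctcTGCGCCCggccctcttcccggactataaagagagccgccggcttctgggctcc
MT2A (chr16:56608334-56608583, plus strand): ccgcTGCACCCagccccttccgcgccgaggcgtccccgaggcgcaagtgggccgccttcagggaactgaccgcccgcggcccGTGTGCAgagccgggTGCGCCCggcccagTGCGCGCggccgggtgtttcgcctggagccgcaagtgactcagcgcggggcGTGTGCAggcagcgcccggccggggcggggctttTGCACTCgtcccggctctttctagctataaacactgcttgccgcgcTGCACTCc
SLC30A1 (chr1:211579162-211579411, minus strand): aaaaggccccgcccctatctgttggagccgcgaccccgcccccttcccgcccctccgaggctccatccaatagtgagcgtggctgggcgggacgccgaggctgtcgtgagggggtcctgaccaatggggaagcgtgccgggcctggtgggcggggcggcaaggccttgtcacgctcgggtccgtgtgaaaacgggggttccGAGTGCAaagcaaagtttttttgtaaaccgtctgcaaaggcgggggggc
MT1X held 4 matches, MT2A 7, and SLC30A1 1. Among the 10947 tested genes with a promoter in the table, 33.6% held at least 1 match, 0.493% at least 4, and 0.0274% at least 7. Of all genes that fell with Dox and rose with PBITE-1, 41 of 62 had a promoter in the table and 39% held at least 1 match, close to the share among all. A match is a run of letters and not evidence of binding. MT1E has no entry in the table. The CCAAT box, described below for the mitotic genes, was in 58.5% of the 41 promoters, against 35.2% of all 10947. It was also in 45.8% of 557 promoters of genes that rose with PBITE-1 only.

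Genes of the amino acid and folate response also moved in opposite directions. SLC6A9 (ENSG00000196517, chromosome 1, 43991500 to 44031467, minus strand), a glycine transporter, was at 3.73, 2.78, and 4.14 CPM in shERG-DMSO, 1.22, 1.02, and 0.51 in shERG-Dox, 2.42, 1.79, and 1.97 in DMSO, and 15.3, 17.2, and 16.3 in PBITE-1 12 h. STC2 (ENSG00000113739, chromosome 5, 173314713 to 173329503, minus strand), a secreted glycoprotein known as a target of ATF4, was at 105, 90, and 89.8 CPM in shERG-DMSO, 29.7, 24.9, and 27.8 in shERG-Dox, 64, 65.2, and 62.2 in DMSO, and 260, 263, and 265 in PBITE-1 12 h. All Dox samples of STC2 were below, and all PBITE-1 samples above, every control sample of either experiment. MTHFD2 and SHMT2, enzymes of the mitochondrial folate pathway, had log2 fold changes of -1.51 with Dox and 2.02 with PBITE-1 and of -1.03 with Dox and 1.37 with PBITE-1, respectively. MTHFD2 went from 131, 140, and 144 to 46.9, 46.1, and 52.9 CPM with Dox and from 133, 122, and 128 to 472, 566, and 515 CPM with PBITE-1. These were the 4 opposed genes among 42 tested members of a list of the integrated stress response, the pathway in which ATF4 induces amino acid transport and synthesis.

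VEGFA (ENSG00000112715, chromosome 6, 43770184 to 43786487, plus strand), the growth factor for blood vessels that hypoxia and ATF4 induce, had the widest difference among the 62, at 6.65 (SE 0.21, adjusted p = 6.02e-30). It was at 102, 53.4, and 51.6 CPM in shERG-DMSO, 22.1, 17.5, and 17.3 in shERG-Dox, 20.6, 19.5, and 19.7 in DMSO, and 565, 584, and 616 in PBITE-1 12 h. Of the shERG-DMSO samples, replicate 1 was far above the other pair, and without it the difference was 6.37. A further pair of hypoxia targets was opposed, P4HA1, a collagen prolyl hydroxylase, at -1.45 with Dox and 2.66 with PBITE-1, and ANKRD37 at -1.64 with Dox and 2.44 with PBITE-1. Over 34 tested genes of hypoxia and glycolysis, 14 fell with Dox and 12 rose with PBITE-1, with a median log2 fold change of -0.89 with Dox and of 0.22 with PBITE-1. The glycolytic enzymes ENO1 (-1.97 with Dox and -1.48 with PBITE-1) and LDHA (-1.91 with Dox and -1.16 with PBITE-1) fell in both, so the members of the list did not share a direction.

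Most genes of sterol synthesis differed between the treatments. Sterol and fatty acid synthesis are driven by the SREBP factors, and INSIG1, which holds these factors in the ER, is itself a target of theirs. INSIG1 (ENSG00000186480, chromosome 7, 155297776 to 155310235, plus strand) was at 272, 291, and 294 CPM in shERG-DMSO, 117, 120, and 116.4 in shERG-Dox, 442, 417, and 448 in DMSO, and 5245, 5329, and 5450 in PBITE-1 12 h, with log2 fold changes of -1.28 with Dox and 3.62 with PBITE-1. FASN (ENSG00000169710, chromosome 17, 82078333 to 82098332, minus strand), fatty acid synthase, went from 1395, 1378, and 1379 to 712, 645, and 640 CPM with Dox and from 1461, 1535, and 1327 to 11360, 10160, and 10730 CPM with PBITE-1. FDPS and CYP51A1, enzymes of the sterol pathway, were opposed with -1.16 with Dox and 1.36 with PBITE-1 and with -1.24 with Dox and 1.22 with PBITE-1. Of 24 tested cholesterol synthesis genes, 6 fell and 1 rose with Dox, 15 rose and 0 fell with PBITE-1, and the difference was called as higher with PBITE-1 in 19. Their median log2 fold change was -0.68 with Dox and 1.36 with PBITE-1. The CCAAT box was in 15 of their 18 promoters in the table (83.3%), against 35.2% of all 10947. In the list of the integrated stress response it was in 54.3% of 35 promoters. HMGCS1 (-1.51 with Dox and 0.72 with PBITE-1) and SQLE (-1.46 with Dox and 0.69 with PBITE-1) fell with Dox and did not reach a log2 fold change of 1 with PBITE-1, while STARD4 (-0.21 with Dox and 2.08 with PBITE-1) rose with PBITE-1 only. The factor SREBF2 was at -0.81 with Dox and -0.04 with PBITE-1, and neither value was called.

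The remaining named genes of the class have diverse roles. LIPG (ENSG00000101670, chromosome 18, 49560699 to 49599182, plus strand), endothelial lipase, was at 19.8, 20, and 18.5 CPM in shERG-DMSO, 3.19, 3.35, and 2.99 in shERG-Dox, 23.1, 26.2, and 28.9 in DMSO, and 118, 127, and 130 in PBITE-1 12 h. VGF (ENSG00000128564, chromosome 7, 101162509 to 101165593, minus strand), the precursor of secreted neuropeptides, was at 36.2, 32.5, and 29.9 CPM in shERG-DMSO, 8.15, 6.33, and 10.6 in shERG-Dox, 22, 18.6, and 17.8 in DMSO, and 208, 238, and 218 in PBITE-1 12 h. For both genes every Dox sample was below and every PBITE-1 sample above all controls. DHRS2 (ENSG00000100867, chromosome 14, 23630115 to 23645639, plus strand), a short-chain dehydrogenase, was at 2.33, 2.28, and 1.55 CPM in shERG-DMSO, 0.476, 0.509, and 0.364 in shERG-Dox, 8.01, 8.45, and 8.01 in DMSO, and 86.2, 127, and 98.2 in PBITE-1 12 h, so that its controls differed as well, with shERG-DMSO below DMSO by a log2 difference of -2.00 (SE 0.32, adjusted p = 1.33e-06). KCTD12 (ENSG00000178695, chromosome 13, 76880166 to 76886390, minus strand), an auxiliary subunit of GABA-B receptors, was at 3.66, 3.48, and 2.67 CPM in shERG-DMSO, 0.951, 0.582, and 0.729 in shERG-Dox, 1.93, 2.88, and 2.99 in DMSO, and 11.3, 14.4, and 14.5 in PBITE-1 12 h. PMAIP1, which encodes the pro-apoptotic protein NOXA, had log2 fold changes of -1.56 with Dox and 3.35 with PBITE-1, from 1.17, 2.15, and 1.9 to 0.543, 0.437, and 0.729 CPM and from 2.14, 3.14, and 2.15 to 24.7, 25, and 25.7 CPM. CENPA and CKS2, at -1.35 with Dox and 1.04 with PBITE-1 and at -1.41 with Dox and 1.00 with PBITE-1, were the 2 opposed genes of mitosis.

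**Figure D2:**
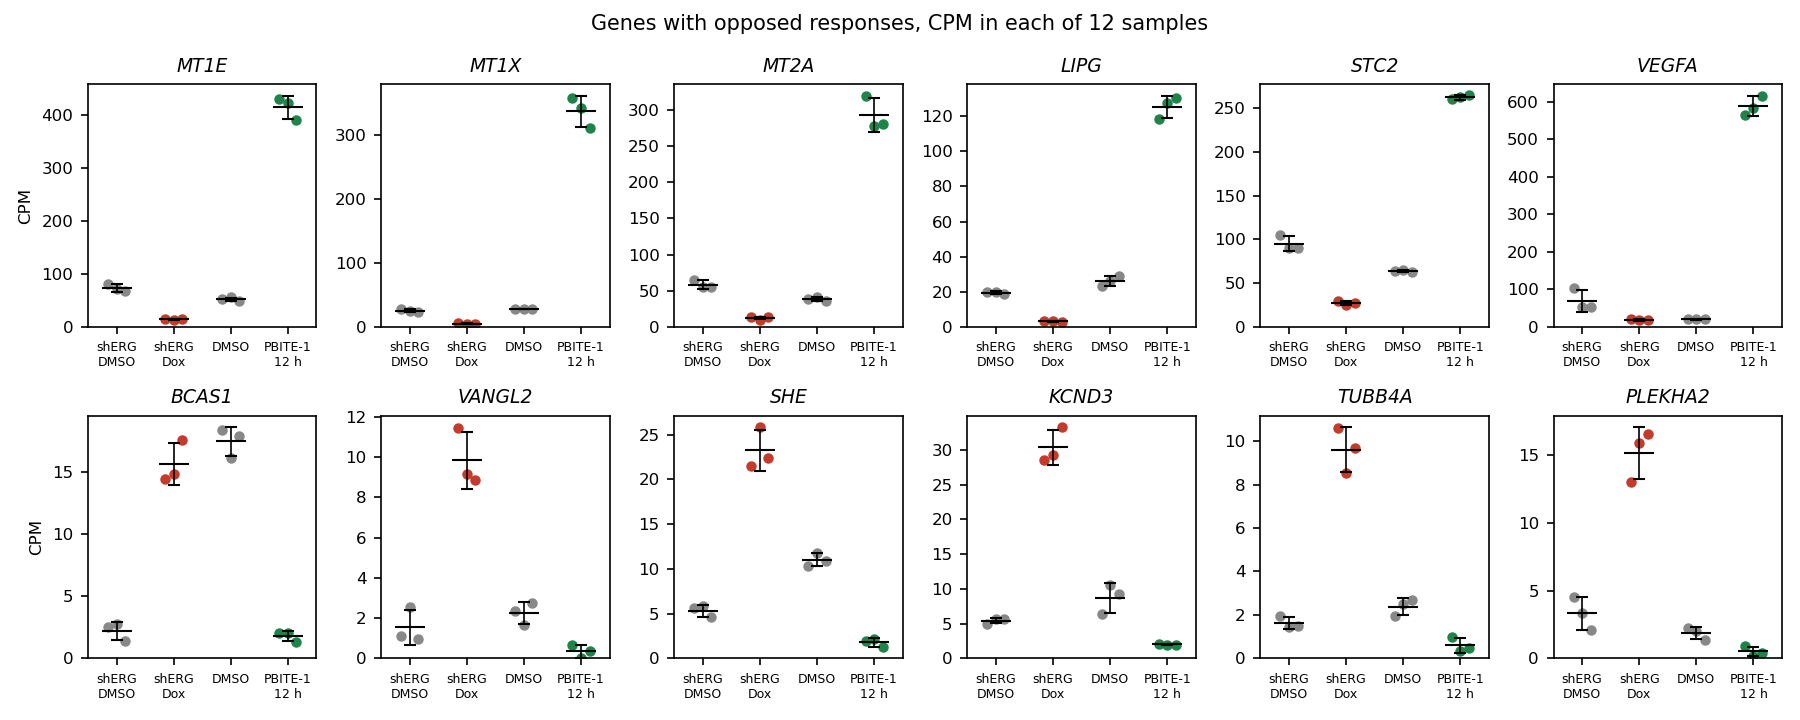
Points are the CPM of single samples (y axis, from 0) in shERG-DMSO, shERG-Dox, DMSO, and PBITE-1 12 h, with bars for the mean ± SD (n = 3), for 6 genes that fell with Dox and rose with PBITE-1 (top) and 6 that did the reverse (bottom). VEGFA reached 565 to 616 CPM with PBITE-1 and 17.3 to 22.1 CPM with Dox, and BCAS1 was at 14.5 to 17.6 CPM with Dox and 1.31 to 2.07 CPM with PBITE-1.

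The 283 genes that rose with Dox and fell with PBITE-1 were led by BCAS1, a gene named for its amplification in breast cancer. BCAS1 (ENSG00000064787, chromosome 20, 53936777 to 54070594, minus strand) was at 2.49, 2.78, and 1.41 CPM in shERG-DMSO, 14.5, 14.8, and 17.6 in shERG-Dox, 18.4, 16.1, and 17.9 in DMSO, and 2.04, 2.07, and 1.31 in PBITE-1 12 h. The Dox samples thus lay near the level of DMSO, and the PBITE-1 samples near that of shERG-DMSO. VANGL2 (ENSG00000162738, chromosome 1, 160400586 to 160428678, plus strand), a membrane protein of planar cell polarity, was at 1.09, 2.53, and 0.984 CPM in shERG-DMSO, 11.5, 9.17, and 8.89 in shERG-Dox, 2.35, 1.67, and 2.75 in DMSO, and 0.68, 0, and 0.344 in PBITE-1 12 h. KCND3 (ENSG00000171385, chromosome 1, 111770662 to 111989155, minus strand), a voltage-gated potassium channel, was at 4.98, 5.69, and 5.62 CPM in shERG-DMSO, 28.6, 29.3, and 33.3 in shERG-Dox, 6.35, 10.5, and 9.27 in DMSO, and 2.12, 1.94, and 1.93 in PBITE-1 12 h. For VANGL2 and KCND3 the Dox samples were above all others and the PBITE-1 samples below all others.

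SHE (ENSG00000169291, chromosome 1, 154469772 to 154502113, minus strand), an adaptor with an SH2 domain, was at 5.6, 5.82, and 4.57 CPM in shERG-DMSO, 21.5, 25.8, and 22.4 in shERG-Dox, 10.4, 11.8, and 10.9 in DMSO, and 1.89, 2.21, and 1.24 in PBITE-1 12 h. KCNT1 (ENSG00000107147, chromosome 9, 135702185 to 135795508, plus strand), a potassium channel opened by sodium, was at 4.51, 3.41, and 3.23 CPM in shERG-DMSO, 18.4, 20.4, and 18.1 in shERG-Dox, 11.7, 12.4, and 10.8 in DMSO, and 3.25, 2.21, and 3.17 in PBITE-1 12 h. The PBITE-1 samples of SHE were below shERG-DMSO, and those of KCNT1 overlapped its lowest sample. APELA (ENSG00000248329, chromosome 4, 164877004 to 164898965, plus strand), a peptide ligand of the apelin receptor, was at 3.81, 4.43, and 4.92 CPM in shERG-DMSO, 22.4, 20.1, and 20.2 in shERG-Dox, 16.3, 18.4, and 19.1 in DMSO, and 4.23, 4.35, and 4.54 in PBITE-1 12 h. CHRM1 (ENSG00000168539, chromosome 11, 62908679 to 62921807, minus strand), the muscarinic acetylcholine receptor of subtype M1, was at 2.72, 2.53, and 3.65 CPM in shERG-DMSO, 12.4, 10.7, and 11.1 in shERG-Dox, 6.42, 7.11, and 7.05 in DMSO, and 0.906, 0.735, and 1.24 in PBITE-1 12 h. In both genes every Dox sample was above DMSO. The PBITE-1 samples were within the range of shERG-DMSO for APELA and below it for CHRM1.

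TUBB4A (ENSG00000104833, chromosome 19, 6494319 to 6502848, minus strand), a neuronal beta-tubulin, was at 1.95, 1.45, and 1.48 CPM in shERG-DMSO, 10.6, 8.52, and 9.7 in shERG-Dox, 1.93, 2.5, and 2.69 in DMSO, and 0.982, 0.334, and 0.482 in PBITE-1 12 h. PLEKHA2 (ENSG00000169499, chromosome 8, 38901235 to 38973909, plus strand), an adaptor that binds phosphoinositides, was at 4.51, 3.35, and 2.11 CPM in shERG-DMSO, 13, 15.9, and 16.6 in shERG-Dox, 2.21, 1.99, and 1.38 in DMSO, and 0.906, 0.201, and 0.413 in PBITE-1 12 h. IGSF5 (ENSG00000183067, chromosome 21, 39745407 to 39802096, plus strand), a junctional adhesion protein, was at 1.63, 1.96, and 2.04 CPM in shERG-DMSO, 7.75, 7.28, and 8.82 in shERG-Dox, 4.56, 2.37, and 5.56 in DMSO, and 0.982, 0.602, and 0.62 in PBITE-1 12 h. In these 3 genes the PBITE-1 samples were under 1 CPM and rested on 3 to 13 counts each. The log2 differences of the responses were -4.64 (SE 0.47, adjusted p = 7.88e-12), -4.26 (SE 0.53, adjusted p = 1.89e-09), and -4.47 (SE 0.49, adjusted p = 6.24e-11).

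Among more abundant members, FOLH1 (ENSG00000086205, chromosome 11, 49146635 to 49208670, minus strand), which encodes prostate-specific membrane antigen, was at 72.8, 75.4, and 90.8 CPM in shERG-DMSO, 214, 207, and 180 in shERG-Dox, 48.7, 46, and 45.1 in DMSO, and 25.4, 21.3, and 19.4 in PBITE-1 12 h. Its log2 fold changes were 1.33 with Dox and -1.09 with PBITE-1. ALDH1A3, a retinaldehyde dehydrogenase induced by androgen in prostate cells, was at 1.57 with Dox and -1.66 with PBITE-1. ELF5, an epithelial ETS factor, was the only opposed gene of 21 tested members of the ETS family, at 1.17 with Dox and -1.30 with PBITE-1. The interferon-stimulated genes IFIT3 and IFI44 were opposed at 1.86 with Dox and -1.20 with PBITE-1 and at 1.29 with Dox and -2.31 with PBITE-1, on 4 to 8 and 3 to 6 counts per PBITE-1 sample. Of 33 tested interferon-stimulated genes, 15 rose and 1 fell with Dox, 10 rose and 7 fell with PBITE-1, and the difference was called as lower with PBITE-1 in 16. MX2 had the widest difference, at -3.84 (SE 0.87, adjusted p = 0.000158), with log2 fold changes of 2.67 with Dox and -1.16 with PBITE-1, of which only the first was called. PARP9, at 0.87 with Dox and -2.10 with PBITE-1, fell with PBITE-1 and was not called with Dox, while IRF7 and IRF1 rose with PBITE-1 only, at 2.93 and 2.42.

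The untreated cells of both experiments were not alike for these genes. Of the 283, 103 were called lower and 2 higher in shERG-DMSO than in DMSO, against 708 and 168 of all 14164 tested genes, and the median log2 difference was -0.84. In the 62 genes of the opposite class, 2 were lower and 7 higher in shERG-DMSO. This comparison uses the same control samples as the responses, so it is a description of starting levels and not independent of them. The part of the starting levels in the opposed responses was not tested.

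The samples of PBITE-1 at 4 h and 8 h were not used to choose the opposed genes. Between these times, 607 of all tested genes were higher (4.29%) and 319 lower (2.25%) at 8 h. Of the 62 genes that rose with PBITE-1, 12 were higher at 8 h than at 4 h (19.4%) and 0 lower, and 56 had a positive log2 difference. Of the 283 that fell, 47 were lower at 8 h (16.6%) and 2 higher, and 242 had a negative difference. These shares were above those of all tested genes but are not particular to opposed genes, since 16.6% of the 730 genes that rose with PBITE-1 only were higher at 8 h and 13.9% of the 599 that fell with PBITE-1 only were lower. Against DMSO, whose samples the comparisons at 4, 8, and 12 h share, the 3 times gave the 62 genes median log2 fold changes of 1.21, 1.88, and 1.81 in order of time, and the 283 genes medians of -0.45, -0.99, and -2.00. Counting the 7 genes of the 283 whose PBITE-1 12 h group held 0 counts at a bound from 3 counts, the last median was -1.97.

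**Figure D3:**
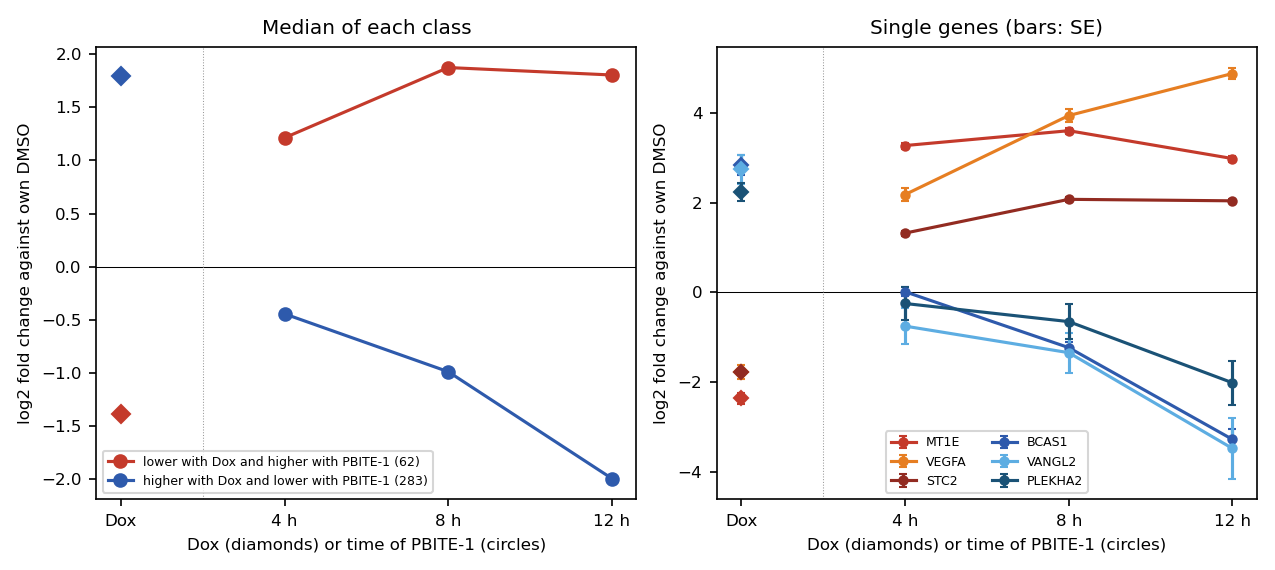
The y axis is the log2 fold change against the group's own DMSO control for Dox (diamonds) and for PBITE-1 at 4, 8, and 12 h (circles), as the median of each opposed class (left) and for 6 single genes with SE (right). The class that rose with PBITE-1 had reached 1.21 by 4 h, whereas the class that fell moved from -0.45 at 4 h to -2.00 at 12 h.

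Single genes followed different courses. From 4 h to 8 h the log2 difference of MT1X was 0.03 (SE 0.05, adjusted p = 0.639), with means of 528 CPM at 4 h and 537 at 8 h. VEGFA rose further by 1.76 (SE 0.09, adjusted p = 6.02e-21), from 90.7 to 307 CPM. LIPG, at 21.8 CPM at 4 h, was near its DMSO level there and rose by 1.58 (SE 0.09, adjusted p = 2.68e-19) to 8 h. BCAS1 was at 17.6 CPM at 4 h, a mean within the range of DMSO, and fell by 1.25 on the log2 scale to 8 h (SE 0.14, adjusted p = 1.81e-10). CHRM1, in contrast, was at 2.22 CPM at 4 h and 2.11 CPM at 8 h, below all DMSO samples at both times.

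Of the 174 genes that fell with Dox only (59 genes without TMM scaling), 34 were on a list of mitosis genes. Of the 70 tested genes of the mitotic spindle, kinetochore, and cytokinesis, 62 fell with Dox and 0 rose, whereas 2 fell and 3 rose with PBITE-1. The difference was called as higher with PBITE-1 in 50 of the 70 genes. The median log2 fold change was -1.25 with Dox and -0.04 with PBITE-1, against 0.02 and -0.05 over all tested genes. CENPF, a kinetochore protein, was at 578, 564, and 535 CPM in shERG-DMSO, 174, 192, and 202 in shERG-Dox, 659, 663, and 706 in DMSO, and 652, 646, and 659 in PBITE-1 12 h. CCNA2, cyclin A2, went from 103, 106, and 95.3 to 33.7, 39.2, and 38.1 CPM with Dox and from 120, 115, and 128 to 126, 121, and 121 CPM with PBITE-1. AURKB, a kinase of the chromosomal passenger complex, was at -1.47 with Dox and -0.17 with PBITE-1, and KIF15, a spindle motor, at -1.48 with Dox and -0.43 with PBITE-1. NUSAP1 rose with PBITE-1, at 2.13. Its value of 0.96 with Dox did not reach an adjusted p under 0.05, so no rise with Dox is read from it. At that limit, 69 of the 70 genes had a negative Dox value and 0 a positive one. SPC24 (-1.38 with Dox and -1.52 with PBITE-1) and MYBL2 (-1.79 with Dox and -1.48 with PBITE-1) fell in both.

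The sequences before the start of the 3 mitotic genes of this class with the largest fall are shown, since many genes of mitosis share 2 promoter elements, the cell cycle homology region TTTGAA and the CCAAT box. Build, length, and direction are as above, and capitals mark TTTGAA or CCAAT on either strand.
CENPF (chr1:214602945-214603194, plus strand): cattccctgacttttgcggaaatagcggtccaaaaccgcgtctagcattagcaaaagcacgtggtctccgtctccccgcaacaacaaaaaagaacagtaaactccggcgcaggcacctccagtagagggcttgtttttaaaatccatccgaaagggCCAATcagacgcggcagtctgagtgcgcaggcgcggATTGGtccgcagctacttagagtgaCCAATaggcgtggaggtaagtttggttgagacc
KIF15 (chr3:44761544-44761793, plus strand): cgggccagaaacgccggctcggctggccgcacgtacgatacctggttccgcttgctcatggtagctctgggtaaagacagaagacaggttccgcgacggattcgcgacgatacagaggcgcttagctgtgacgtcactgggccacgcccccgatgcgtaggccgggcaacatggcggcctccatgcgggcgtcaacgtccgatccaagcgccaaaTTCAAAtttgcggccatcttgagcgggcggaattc
AURKB (chr17:8210226-8210475, minus strand): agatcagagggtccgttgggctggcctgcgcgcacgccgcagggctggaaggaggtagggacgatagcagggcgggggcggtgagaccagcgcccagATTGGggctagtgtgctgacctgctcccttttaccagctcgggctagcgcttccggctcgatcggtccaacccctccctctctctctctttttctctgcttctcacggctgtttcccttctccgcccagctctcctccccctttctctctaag
CENPF held 3 CCAAT matches, KIF15 held 1 TTTGAA, and AURKB held 1 CCAAT. Of 135 genes that fell with Dox only and had a promoter in the table, 25.9% held TTTGAA and 54.1% CCAAT, against 8.27% and 35.2% of all 10947. In the mitosis list the shares were 52.5% and 74.6% of 59. Among genes that fell with PBITE-1 only, they were 7.56% and 22.7% of 450, and among those opposed with a rise under Dox 7.58% and 23.7% of 198. The ETS motif CCGGAAGT was in 6.86% of all promoters and in 9.63% of those of genes that fell with Dox only. It was in 2.44% for a fall with PBITE-1 only, 1.3% for a rise with Dox only, and 5.21% for a rise with PBITE-1 only. In opposed genes it was in 0.505% with a rise under Dox and in 1 of 41 promoters (2.44%) with a fall under Dox. The classes differed in expression, with median control levels of 47.3 CPM for a fall with Dox only and 15.9 CPM for a fall with PBITE-1 only. Whether expression plays a part in these shares was not tested.

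Replication was not separated in the same way. Of 56 tested DNA replication genes, 43 fell with Dox and 35 with PBITE-1, and the difference was called in 3 as lower and in 4 as higher. Their medians were -1.34 with Dox and -1.16 with PBITE-1, and the sign of the median difference, 0.07, turned to -0.05 under upper-quartile scaling and to -0.19 on library size only. CDC6, which loads the replicative helicase, was the exception among named genes and fell with Dox only, with 148, 153, and 147 CPM in shERG-DMSO, 40.2, 39.1, and 45.4 in shERG-Dox, 160, 153, and 162 in DMSO, and 151, 180, and 160 in PBITE-1 12 h. POLE2, a subunit of DNA polymerase epsilon, fell further with PBITE-1, at -1.30 with Dox and -3.12 with PBITE-1. Of 63 genes of MYC and ribosome biogenesis, 47 fell with Dox and 46 with PBITE-1. The 53 cytosolic ribosomal protein genes had a median of -0.73 with Dox and -0.07 with PBITE-1, and none was called in either, although all 53 had a negative Dox value at an adjusted p under 0.05. RPS12 was at -0.89 with Dox and 0.27 with PBITE-1.

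**Figure D4:**
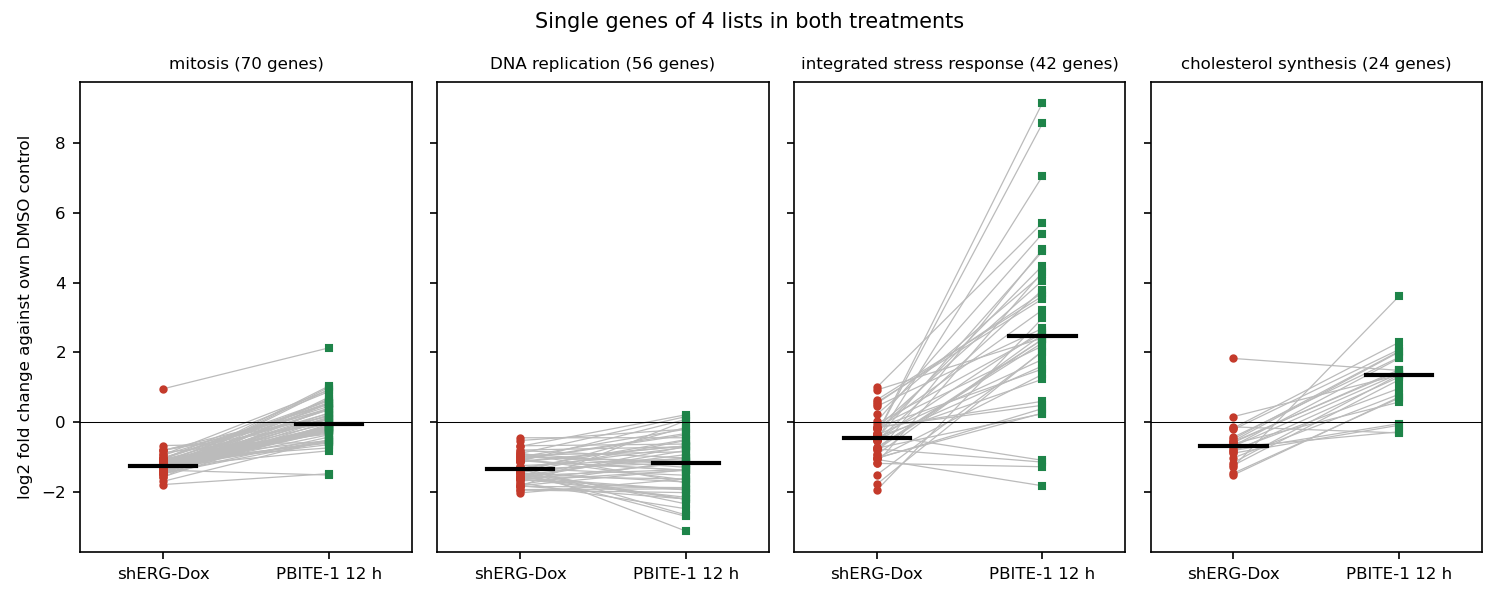
Each pair of joined points is 1 gene, with its log2 fold change in shERG-Dox (red) and in PBITE-1 12 h (green) against its own DMSO control (y axis), and black bars are medians. Mitosis genes lie near -1.25 with Dox and around 0 with PBITE-1, DNA replication genes are low in both, and the genes of the integrated stress response and cholesterol synthesis have medians of 2.46 and 1.36 with PBITE-1.

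Outside the cell cycle, LOX, lysyl oxidase, which crosslinks collagen, led the genes that fell with Dox only among those with a mean count of at least 50. It was at 10, 7.21, and 9.27 CPM in shERG-DMSO, 1.22, 1.97, and 1.9 in shERG-Dox, 4.63, 4.61, and 6.64 in DMSO, and 6.12, 7.02, and 7.02 in PBITE-1 12 h. HK2, hexokinase 2, was at 93, 51.5, and 52.3 CPM in shERG-DMSO, 14.4, 15.7, and 13.6 in shERG-Dox, 27, 29.2, and 28.5 in DMSO, and 33.7, 35, and 31.5 in PBITE-1 12 h, with replicate 1 of shERG-DMSO above the other pair. Without that sample its difference was 2.09, against 2.33. HES1, a repressor induced by Notch, was at -2.04 with Dox and 0.46 with PBITE-1, and TFRC, the transferrin receptor, at -1.90 with Dox and -0.50 with PBITE-1, the latter at the limit of the class. PDGFC, a growth factor, was at -1.81 with Dox and 0.22 with PBITE-1. The glucose transporter SLC2A1 and the enzyme GAPDH also belonged to this class, at -1.46 with Dox and 0.18 with PBITE-1 and at -1.09 with Dox and -0.02 with PBITE-1.

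The 321 genes that rose with Dox only included matrix and adhesion genes. COL6A1 (ENSG00000142156, chromosome 21, 45981737 to 46005050, plus strand), a collagen VI chain, was at 18.1, 13.2, and 13.8 CPM in shERG-DMSO, 104, 97.2, and 89.6 in shERG-Dox, 17.4, 19.6, and 16.1 in DMSO, and 16, 13.7, and 15.8 in PBITE-1 12 h. FN1, fibronectin, was at 2.61 with Dox and -0.10 with PBITE-1, and ITGB4, an integrin of hemidesmosomes, at 3.17 with Dox and -0.42 with PBITE-1. The stromal marker sum given above moved with both treatments, through COL1A1 almost alone, while COL1A2 and DCN stayed under 0.14 CPM in every sample. Of 38 tested genes of adhesion and matrix, 12 rose and 8 fell with Dox and 11 rose and 9 fell with PBITE-1, without a shared direction. RASSF6, a Ras-association domain protein, was at 9.41, 10.2, and 8.99 CPM in shERG-DMSO, 60.7, 58.1, and 61.8 in shERG-Dox, 23, 24.5, and 27.1 in DMSO, and 21.6, 20.7, and 20 in PBITE-1 12 h. PIK3IP1, an inhibitor of phosphoinositide kinase, was at 2.68 with Dox and -0.0016 with PBITE-1, MR1, which presents vitamin metabolites to T cells, at 2.55 with Dox and -0.14 with PBITE-1, and SPTBN4, a spectrin, at 2.48 with Dox and 0.49 with PBITE-1. ANKRD33B was at 2.45 with Dox and 0.38 with PBITE-1. Of the 33 interferon-stimulated genes, 4 were in this class, among them MX1 (1.42 with Dox and -0.10 with PBITE-1) and SAMD9 (2.32 with Dox and 0.19 with PBITE-1).

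The 599 genes that fell with PBITE-1 only included the gene of prostate-specific antigen, a gene long known to be induced by androgen. KLK3 (ENSG00000142515, chromosome 19, 50854915 to 50860764, plus strand) was at 139, 123, and 116.5 CPM in shERG-DMSO, 109, 106, and 103 in shERG-Dox, 91.7, 90.4, and 83.2 in DMSO, and 8.84, 7.62, and 7.71 in PBITE-1 12 h. Its log2 fold change was -3.46 (SE 0.12, adjusted p = 2.51e-29) with PBITE-1 and -0.24 (SE 0.05, adjusted p = 4.12e-05) with Dox. ACP3, prostatic acid phosphatase, went from 1317, 1295, and 1315 to 157, 141, and 156 CPM with PBITE-1, while with Dox it was 1069, 1057, and 1048 before and 1727, 1723, and 1736 after, a log2 fold change of 0.71. Of 37 tested androgen response genes, 12 fell and 2 rose with PBITE-1, 5 fell and 2 rose with Dox, and the difference was called as lower with PBITE-1 in 10 and as higher in 6. CHRNA2, TRPM8, PMEPA1, and SPDEF also fell with PBITE-1 only, at -3.14, -2.71, -2.01, and -1.22. FKBP5 (-1.50 with Dox and -0.66 with PBITE-1) fell with Dox and was not called with PBITE-1, where its adjusted p was 1.41e-18 at a log2 fold change below 1 in size. HOXB13, a lineage factor of the prostate, was at 0.75 with Dox and -1.35 with PBITE-1, with the difference called.

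The other named genes of this class were TNS3, ZNF618, ISX, VSTM5, and TMEM184A. TNS3, tensin 3, a protein of focal adhesions, was at 35.7, 36.7, and 42 CPM in shERG-DMSO, 36.5, 39.6, and 41.2 in shERG-Dox, 36.8, 39.1, and 38.6 in DMSO, and 2.34, 3.34, and 2.96 in PBITE-1 12 h. With Dox its samples overlapped the controls, with a log2 fold change of 0.03 (SE 0.07, adjusted p = 0.678). ZNF618, a zinc finger protein, was at -0.10 with Dox and -3.43 with PBITE-1, and TMEM184A, a membrane protein, at 0.33 with Dox and -3.38 with PBITE-1. For ISX, an intestinal homeobox factor, and VSTM5, a membrane protein of the immunoglobulin type, the values with PBITE-1 were -4.42 and -3.77. The parental controls of ISX, at 8.98, 9.99, and 8.19 CPM, were above the shERG-DMSO samples, at 4.28, 4.43, and 4.64 CPM.

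The 730 genes that rose with PBITE-1 only held 14 of 42 tested genes of the integrated stress response, among them the factors ATF3, DDIT3, CEBPB, and CEBPG, whereas ATF4 (-0.50 with Dox and 1.61 with PBITE-1) rose with PBITE-1 and lay just beyond the limit of 0.5 with Dox. ATF3 (ENSG00000162772, chromosome 1, 212565334 to 212620777, plus strand), a factor induced by ATF4 and by many stresses, was at 0.7, 0.759, and 0.913 CPM in shERG-DMSO, 0.543, 0.437, and 0.948 in shERG-Dox, 0.483, 1.09, and 0.418 in DMSO, and 305, 431, and 360 in PBITE-1 12 h. With Dox its log2 fold change was -0.35 (SE 0.88, adjusted p = 0.733). CHAC1, which degrades glutathione, had 3 counts in all DMSO samples together and 1290 in PBITE-1 12 h, a ratio of 471 (95% interval from counting 161 to 2290), and was at 0.856, 1.07, and 0.913 CPM in shERG-DMSO and 0.543, 0.728, and 1.02 in shERG-Dox. Of 42 tested genes of the integrated stress response, 33 rose and 4 fell with PBITE-1, while 8 fell and 0 rose with Dox, and the difference was called as higher with PBITE-1 in 35. The medians were -0.45 with Dox and 2.46 with PBITE-1. DDIT3, which encodes the factor CHOP, was at -0.17 with Dox and 4.06 with PBITE-1, and ASNS, asparagine synthetase, at -0.54 with Dox and 3.79 with PBITE-1. VLDLR (-1.07 with Dox and -1.82 with PBITE-1) and PYCR1 (-1.18 with Dox and -1.28 with PBITE-1) fell in both.

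ATF3 and CHAC1, shown because they were the named genes of the integrated stress response list and 2 of the 6 leading genes that rose with PBITE-1 only, hold the core of the element to which ATF4 and its partners are known to bind, here searched as TGATGNAA on either strand and given in capitals in the 250 bases before the start.
ATF3 (chr1:212565157-212565406, plus strand): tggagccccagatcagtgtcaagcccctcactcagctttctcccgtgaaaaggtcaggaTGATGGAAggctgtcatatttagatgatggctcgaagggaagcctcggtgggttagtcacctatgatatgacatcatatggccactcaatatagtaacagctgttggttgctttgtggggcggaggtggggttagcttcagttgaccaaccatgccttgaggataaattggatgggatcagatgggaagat
CHAC1 (chr15:40953221-40953470, plus strand): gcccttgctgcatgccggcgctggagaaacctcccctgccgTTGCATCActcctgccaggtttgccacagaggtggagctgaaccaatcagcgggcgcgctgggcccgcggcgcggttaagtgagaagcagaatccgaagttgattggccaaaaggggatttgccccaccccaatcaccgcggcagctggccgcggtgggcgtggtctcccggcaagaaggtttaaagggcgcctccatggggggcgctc
The element was in 14.3% of the 35 promoters of the list, against 1.37% of all 10947. It was in 1.8% of 557 promoters of the genes that rose with PBITE-1 only. Among genes that rose with Dox and fell with PBITE-1, the share was higher, at 4.04% of 198 promoters. In the opposed genes that fell with Dox and rose with PBITE-1 it was in 0 of 41, which says only that these letters are not in that stretch.

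Immediate early and inflammatory genes rose with PBITE-1 and were mostly not called with Dox. Of 29 tested immediate early and AP-1 genes, 25 rose and 0 fell with PBITE-1, and 1 rose and 2 fell with Dox. The medians were -0.14 with Dox and 3.14 with PBITE-1. FOS, an AP-1 subunit, was at 0.156, 0.759, and 0.773 CPM in shERG-DMSO, 0.543, 0.218, and 0.146 in shERG-Dox, 0.69, 0.768, and 0.478 in DMSO, and 26.4, 30.8, and 29.5 in PBITE-1 12 h. KLF10 (-1.36 with Dox and 0.17 with PBITE-1) fell with Dox only, and MAFF (1.31 with Dox and 1.62 with PBITE-1) rose in both. Of 26 chemokine and feedback genes of NF-kB, 17 rose with PBITE-1 and 2 with Dox. CXCL8, a chemokine for neutrophils, was at 0, 0.126, and 0.0703 CPM in shERG-DMSO, 0, 0.0728, and 0.364 in shERG-Dox, 0.483, 0.32, and 0.718 in DMSO, and 253, 248, and 247 in PBITE-1 12 h. CCL20 had 1 count in all DMSO samples and 997 in PBITE-1 12 h, a ratio of 1090 (95% interval from counting 196 to 43200), with 0 counts in the shERG groups. CXCL2, at 0 counts in DMSO and 380 in PBITE-1 12 h, was at least 139-fold higher against a floor of 3 counts over the group. LAMP3, a lysosomal membrane protein, was at 0.156, 0.569, and 0.632 CPM in shERG-DMSO, 0.136, 0.364, and 0.51 in shERG-Dox, 0.759, 0.448, and 0.777 in DMSO, and 81.5, 122, and 121 in PBITE-1 12 h. CEACAM22P, a pseudogene, was at 14.3, 18.9, and 18.4 CPM with PBITE-1 and at most 0.276 CPM in the other 3 groups. For CCL20 and CEACAM22P, with 0 counts in both shERG groups, edgeR did not call the difference (adjusted p = 1).

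Apoptosis and cell cycle control genes were among those higher with PBITE-1 than with Dox. Of 27 tested p53 targets, 12 rose and 1 fell with PBITE-1, and 3 rose and 4 fell with Dox. Of all tested genes, 16.5% rose with PBITE-1 and 11.9% with Dox. The difference was called as higher with PBITE-1 in 11 of the p53 targets and as lower in 0. Some of these targets, such as BBC3, were also on the list of the integrated stress response. BBC3, which encodes the pro-apoptotic protein PUMA, rose with PBITE-1 only, at -0.47 with Dox and 4.89 with PBITE-1. CDKN1A, the inhibitor p21, went from 52.8, 49, and 46.6 to 368, 420, and 400 CPM with PBITE-1 and from 12, 11.1, and 11.2 to 19.2, 19.5, and 19.1 CPM with Dox. BID, a further pro-apoptotic gene, fell with PBITE-1 only, at -0.43 with Dox and -3.30 with PBITE-1. Of 33 genes of homologous recombination, 17 fell with Dox and 10 with PBITE-1, and BRCA2, at -1.41 with Dox and 0.33 with PBITE-1, fell with Dox only while RAD51D, at -0.24 with Dox and -1.80 with PBITE-1, fell with PBITE-1 only. Of 24 fatty acid synthesis genes, 9 rose with PBITE-1 and 2 fell with Dox, and LPIN1, a phosphatidate phosphatase, rose with PBITE-1 only, at -0.06 with Dox and 2.69 with PBITE-1. DGAT2, a triglyceride synthesis enzyme, was the 1 gene of that list with the difference called as lower, at 0.97 with Dox and -1.33 with PBITE-1. Of 13 basal and neuroendocrine markers, 6 rose with Dox and 2 with PBITE-1, against 11.9% and 16.5% of all tested genes. The count with PBITE-1 was near that share. CHGB, a secretory granule protein, was among those that rose with Dox, at 1.29 with Dox and -0.67 with PBITE-1.

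**Figure D5:**
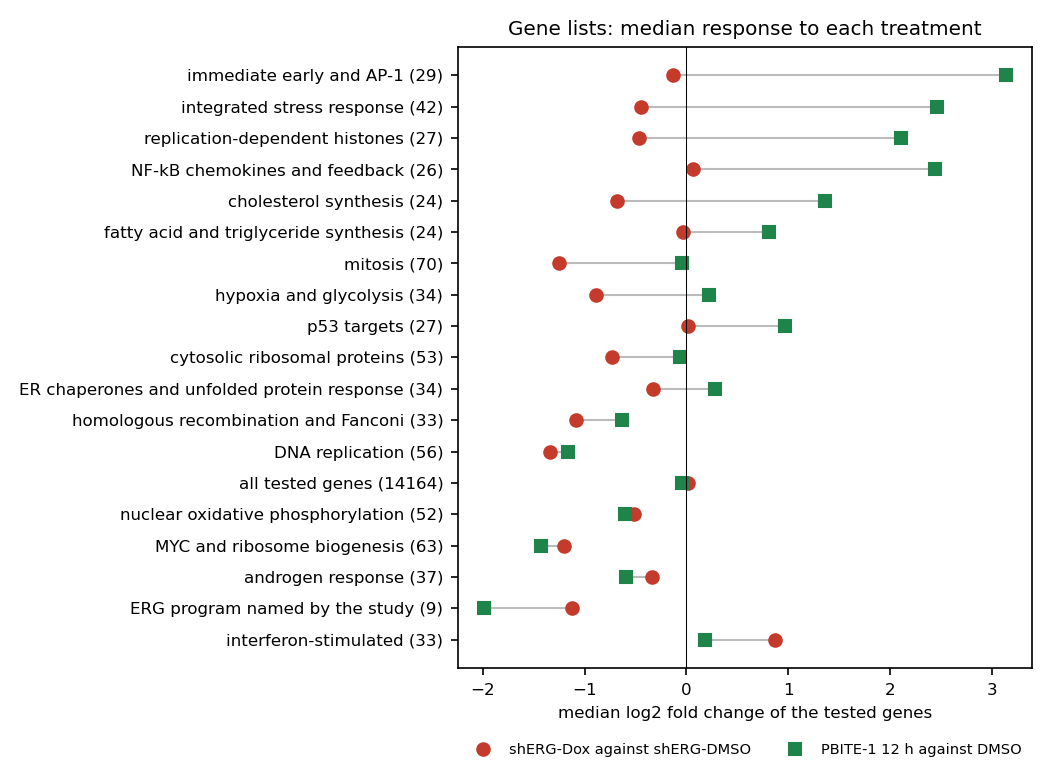
For each gene list (number of tested genes in brackets), the red circle is the median log2 fold change in shERG-Dox and the green square that in PBITE-1 12 h (x axis), sorted by the median difference. Immediate early genes lie at -0.14 and 3.14, mitosis at -1.25 and -0.04, and interferon-stimulated genes, at the bottom, at 0.87 and 0.19.

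A list of genes that the study names for its ERG program held no opposed gene. By qPCR, the study also reported lower TDRD1, PLAT, and PLA1A in VCaP cells given PBITE-1. Of 10 members, 9 were tested, 7 fell with Dox, 8 fell with PBITE-1, and 0 were opposed. The heatmap of the study shows genes identified by its ERG knockdown. Members may thus have been chosen for this direction, and the count is a description. The difference was called in 3, each lower with PBITE-1. TRIM14 was at -1.16 with Dox and -2.74 with PBITE-1, TDRD1 at -0.75 with Dox and -1.87 with PBITE-1, and DLX1 at -1.17 with Dox and -2.25 with PBITE-1. The difference of DLX1 lay near the limit and was not called without replicate 2 of shERG-DMSO (-0.998), replicate 3 of shERG-Dox (-0.995), or replicate 1 of PBITE-1 12 h (-0.883), or with sample quality weights (-0.96). For ARHGDIB (-1.88 with Dox and -2.61 with PBITE-1) and PLAT (-2.01 with Dox and -2.28 with PBITE-1) the difference was not called, with -0.72 (SE 0.12, adjusted p = 1.97e-06) and -0.27 (SE 0.47, adjusted p = 0.618). USP36 fell with Dox and not with PBITE-1, at -1.13 with Dox and -0.60 with PBITE-1, and its difference was not called. TMPRSS2, the partner gene of the fusion, fell in both, at -1.01 with Dox and -1.99 with PBITE-1. Its difference of -0.97 (SE 0.12, adjusted p = 3.16e-09) lay just short of a call and was called under upper-quartile scaling (-1.10), on library size only (-1.23), with sample quality weights (-1.0025), and without replicate 1 of shERG-DMSO (-1.0033), replicate 2 of shERG-Dox (-1.01), or replicate 1 of PBITE-1 12 h (-1.07).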

How the data were processed

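Total RNA from 18 samples of VCaP cells (6 groups of 3 biological replicates) was depleted of ribosomal RNA and sequenced in pairs. The authors deposited a table of gene counts with no normalization, 22034 genes by 18 samples. The processing notes name STAR, featureCounts, and hg38, whereas the methods of the study name Kallisto, edgeR, and limma, so which of these made the counts is not certain, and neither strand nor the treatment of shared reads is given in the sources used here. Samples were grouped by the labels.

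Genes were filtered with filterByExpr over the 6 groups (edgeR 4.0.16), which left 14164. All 18 samples were scaled by TMM and fitted once with limma-voom (limma 3.58.1, R 4.3.3), and each contrast was adjusted by the Benjamini-Hochberg method over all tested genes. Calls required an absolute log2 fold change over 1 together with an adjusted p below 0.05. Samples of 11308600 to 17483423 counts limit each value by counting error, and intervals and floors cover that error only. With 1 to 3 counts in a group, a ratio with an exact binomial interval is given, and with 0 counts a bound from 3.

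Leading genes were the 10 of each opposed class with the largest smaller response and the 6 of each class of 1 treatment with the largest response, with a mean count of at least 50 over the 12 samples and no overlap of replicates. The members, classes, and lists were chosen with earlier results of these data known. Gene positions are from GENCODE 29, and promoters from RefSeq. The fit was tested on simulated counts. Alternatives were edgeR and DESeq2 (1.42.0), other scalings, filters, weights, thresholds, a replicate block, and leaving out each of the 12 samples. Replicate numbers did not pair the samples.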

Additional observations from a re-analysis of the deposited data

How the results depend on the processing

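Under other scalings, all 62 and all 283 opposed genes kept both signs. Upper-quartile scaling left 107 genes lower with Dox only, and library size only left 59, with 39 genes lower with Dox and higher with PBITE-1, of which 6 were higher at 8 h than at 4 h. With at least 10 counts in every sample, fewer genes were tested, and 31 and 101 genes were opposed, 28 and 91 of them among the 62 and 283, and 6 were higher and 10 lower at 8 h. At an absolute log2 fold change above 1.5, the difference was called in 1465 genes as lower and 1042 as higher, 19 and 134 were opposed, 24 were lower and 167 higher with Dox only, 279 lower and 372 higher with PBITE-1 only, and 3 and 18 opposed genes continued at 8 h. At a 1.5-fold change these numbers were 3476, 3046, 226, 543, 505, 577, 1196, 1324, 81, and 127 in the same order. With the other treatment under 0.25, 164 genes were higher with Dox only, 322 lower and 392 higher with PBITE-1 only, and with the other treatment merely not called 572, 965, and 1127. The median difference turned negative under upper-quartile scaling for DNA replication (-0.0535), luminal factors (-0.0832), and lysosome genes (-0.0701), and on library size only for these (-0.1886, -0.2182, and -0.2052) and for mitochondrially encoded genes (-0.0069). The cause of these changes was not tested beyond what each setting removes. Leaving out single samples gave 53 to 67 and 264 to 291 opposed genes. edgeR gave 65 and 280, and DESeq2 65 and 263. Same-numbered samples correlated between -0.0479 and 0.0517, so the numbers do not pair them, and a replicate block gave 2241 lower and 1831 higher genes and 61 and 271 opposed genes. For the named genes no difference reversed under any alternative, 17 values lost their call, and 8 gained it.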

Other observations

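Replication-dependent histone genes were a further group with a called difference in most members. Of 27 tested, 22 rose with PBITE-1, 4 fell and 1 rose with Dox, and the difference was called as higher with PBITE-1 in 22. Their median log2 fold change was 2.10 with PBITE-1 and -0.47 with Dox. H2BC5 went from 7.87, 6.85, and 5.8 to 98.5, 102, and 106 CPM with PBITE-1 and from 5.68, 5.06, and 5.13 to 8.36, 6.91, and 10.7 CPM with Dox. These transcripts mostly lack a poly(A) tail, and members of the family are close copies whose reads may be shared.

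Of 26 tested G1 cyclins, inhibitors of cyclin-dependent kinases, and their partners, 6 rose and 9 fell with PBITE-1 and 2 rose and 9 fell with Dox, with a median difference of -0.03. The inhibitors differed among themselves, since CDKN2A (-0.24 with Dox and -1.59 with PBITE-1) fell with PBITE-1 only, while CDKN1C and CDKN2B rose in both treatments and further with PBITE-1. CDKN1C, which encodes p57, was at 0.856, 0.316, and 0.281 CPM in shERG-DMSO, 3.53, 5.75, and 4.81 in shERG-Dox, 0.069, 0.576, and 0.299 in DMSO, and 73.6, 55.1, and 67.3 in PBITE-1 12 h. CDKN2B, which encodes p15, had log2 fold changes of 1.13 with Dox and 5.27 with PBITE-1. The difference of CDKN1C and CDKN2B was 4.50 (SE 0.77, adjusted p = 1.67e-06) and 4.14 (SE 0.48, adjusted p = 3.01e-10). SAT1, the enzyme that acetylates spermidine and spermine, was at 1.38 with Dox and 3.81 with PBITE-1, while ODC1, which begins polyamine synthesis, fell with Dox only, at -1.41 with Dox and -0.14 with PBITE-1.

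In the Notch pathway, the ligand DLL4 (1.68 with Dox and 5.72 with PBITE-1) and the receptor NOTCH1 (-0.52 with Dox and 3.35 with PBITE-1) rose with PBITE-1. Among the HES and HEY genes of the list, HES6 and HEY2 rose with PBITE-1 only, whereas HES1 did not rise. HEY2 held 2 counts in the shERG-DMSO group and 1 in the shERG-Dox group. Of 20 tested genes of the pathway, 6 rose and 4 fell with PBITE-1 and 3 rose and 2 fell with Dox. The shares over all tested genes were 16.5%, 16.4%, 11.9%, and 7.15% in the same order, so most of these counts were near them. The ligand DLL3 (-0.21 with Dox and -1.61 with PBITE-1) and the coactivator MAML2 (0.18 with Dox and -1.45 with PBITE-1) fell with PBITE-1 only, and DTX1 was opposed the other way, at 2.59 with Dox and -1.50 with PBITE-1, on 3 to 12 counts per PBITE-1 12 h sample. Of 24 tested cytosolic heat shock genes, 6 rose and 2 fell with PBITE-1, and 3 rose and 2 fell with Dox. Of all tested genes, 16.5% rose with PBITE-1 and 11.9% with Dox. The difference was called as higher with PBITE-1 in 11 of the heat shock genes and as lower in 3. Genes that rose included HSPA1A (1.38 with Dox and 4.70 with PBITE-1) and DNAJB1 (-0.16 with Dox and 3.00 with PBITE-1). HSPB1 was opposed the other way, at 2.65 with Dox and -1.68 with PBITE-1, on 0 to 3 counts per PBITE-1 12 h sample.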
